A study of Mus musculus with 11 samples.

Results

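R-spondins, their Lgr receptors, the membrane ligases these receptors act on and 4 secreted Wnt antagonists were followed through sorted cells of the developing mouse kidney. The 10 genes were chosen by name as Rspo1, Rspo3, Lgr4, Lgr5, Rnf43, Znrf3, Sfrp1, Sfrp2, Dkk1 and Wif1, and all 10 were found among the 24427 genes with a usable symbol. The data were mRNA-seq of 11 libraries from kidneys of CFW mice, an outbred strain. Six2+ cells (n = 3) and the Six2- cells (n = 3) were both sorted at embryonic stage E16.5 from Six2TGC/+ kidneys. Six2+ cells at postnatal day 2 (P2, n = 2) were sorted from kidneys of the same Six2TGC/+ genotype. Cited1+ cells (n = 3) were sorted at E16.5 from Cited1tagRFP/+ kidneys. Six2TGC is a transgene that places a fluorescent reporter under Six2 regulatory sequences, so each sort follows the activity of a reporter and not the protein itself. Six2 is a transcription factor of the cap mesenchyme that holds nephron progenitors undifferentiated, and Cited1 is on in their least committed subset. The labels give neither the animals behind each library nor any pooling, so p-values reflect only the variation among these libraries, possibly technical.

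R-spondins are secreted proteins that amplify Wnt signalling without being Wnts themselves. An R-spondin bridges an Lgr receptor and the ubiquitin ligase Znrf3 or Rnf43, which clears the ligase from the membrane and so spares the Frizzled receptors that the ligase would otherwise remove. Secreted antagonists work outside the cell in the opposite sense. Sfrp1, Sfrp2 and Wif1 bind Wnts, while Dkk1 binds the coreceptors Lrp5 and Lrp6. In the mouse kidney, Wnt9b from the ureteric bud acts on nephron progenitors, both to keep them dividing and to start their differentiation, and Rspo1 and Rspo3 are required in that response.

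Values are on the RPKM scale, reads per kilobase of transcript and per library depth, and allow levels of different genes to be set side by side. Steps between low values put the depth of a library at 16500000 to 43800000 reads. Six2 itself averaged 340 ± 22 RPKM in E16.5 Six2+ cells and 7.53 ± 8.2 in Six2- cells (SD, n = 3 each). Cited1 averaged 3.76 ± 1.3 RPKM in P2 Six2+ cells (n = 2) and 201 ± 12 in Cited1+ cells (n = 3). Six2 averaged 137 ± 12 RPKM in those P2 Six2+ cells and 313 ± 53 in Cited1+ cells. The P2 cells sorted for Six2 thus had less Six2 than the cells they were compared with. Each fold change is a difference between group means of log2(value + 1), a scale that compresses the changes of weakly expressed genes. Fold changes are tested with limma, with p-values adjusted over all tested genes and a threshold of 0.05. A gene was tested where its mean was at least 1 RPKM over the libraries compared. The E16.5 Six2+ and Six2- libraries were deposited in a separate table from the P2 Six2+ and Cited1+ libraries, so levels set across the tables are side by side and were not tested.

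**Figure D1:**
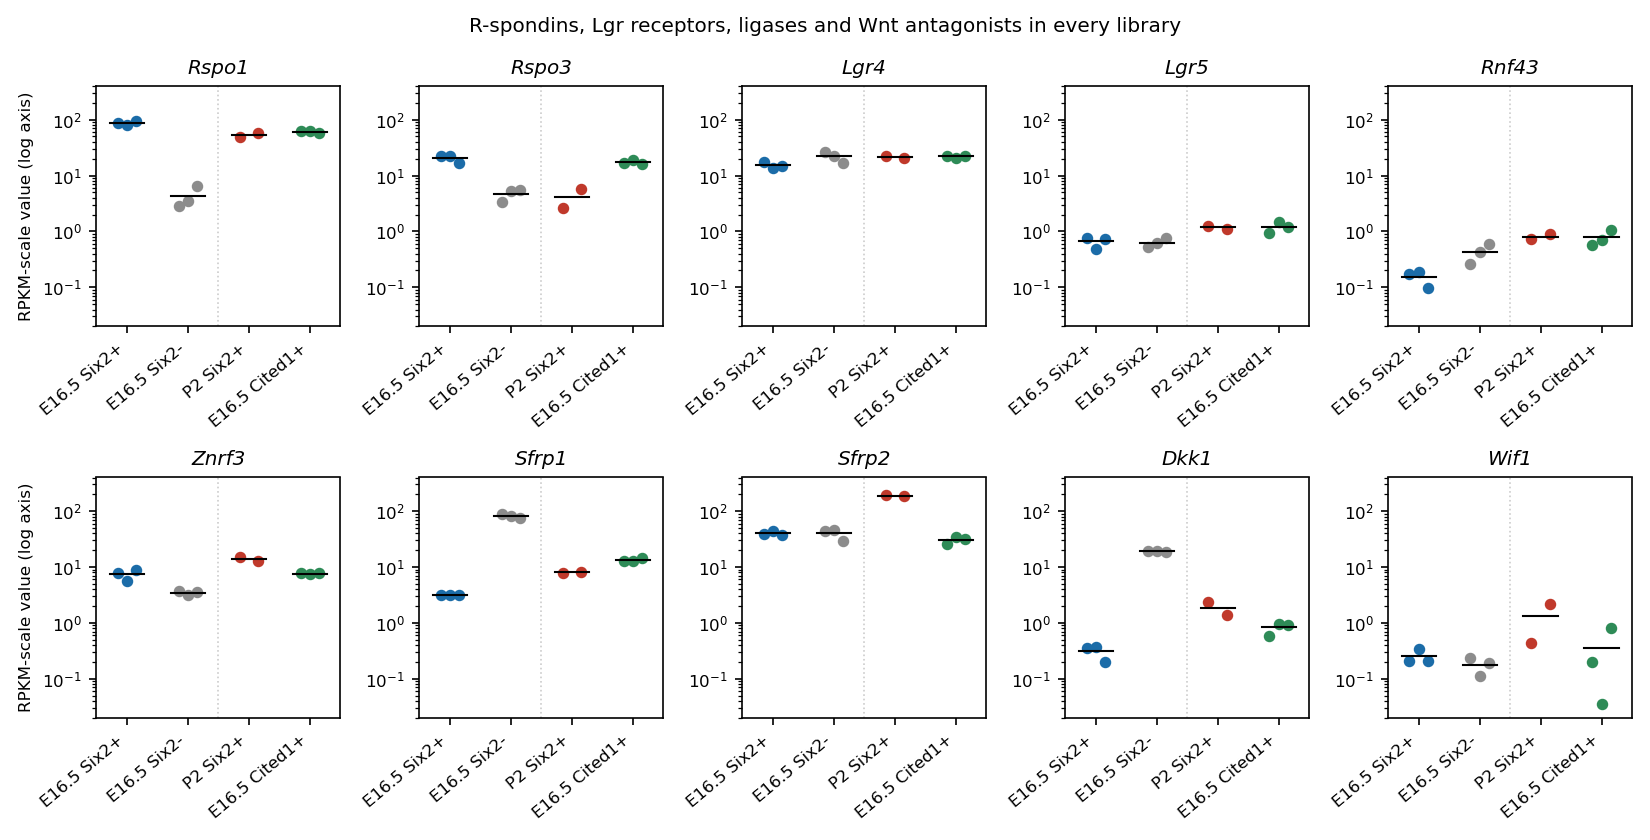
Each panel gives the RPKM-scale value of a gene in every library on a log axis, with the library values as points and the group mean as a line; the dotted line separates the deposited tables. Rspo1 sits between 79.7 and 93.3 in E16.5 Six2+ libraries and between 2.79 and 6.40 in Six2- libraries, while Sfrp1 and Dkk1 show the opposite order.

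The progenitors sorted for Six2 at E16.5 carried the R-spondins and the ligase Znrf3 at higher levels than the Six2- cells, and carried much less Sfrp1 and Dkk1. Sfrp2 and Lgr4 did not pass the test, which did not pair libraries. Lgr4 did pass with a replicate block, an alternative fit that pairs libraries of the same replicate number. Of the 10 genes, 7 were high enough to be tested, and 3 of these rose and 2 fell. Across all 11882 genes tested, 38.6% passed, 20.5% higher and 18.1% lower, so a call in this comparison is common. With the replicate block 3603 genes were higher and 2632 lower, 52.5% of those tested. The values of the groups did not overlap in 5 of the 7, against 51.9% of all tested genes (29.9% higher in Six2+ cells and 22.0% lower). By size the differences of Sfrp1, Rspo1 and Dkk1 ranked 66th, 81st and 94th of the 11882, where 0.774% of genes had a log2 fold change of 4 or more in either direction. The median log2 fold change of all tested genes was 0.12 and that of the 7 was 0.03.

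Rspo1 was the most abundant of the 10 genes in E16.5 Six2+ cells. It had 85.4, 79.7 and 93.3 RPKM in Six2+ libraries, against 2.79, 3.52 and 6.40 RPKM in Six2- libraries. The groups lie far apart, with means of 86.2 ± 6.81 and 4.24 ± 1.91 RPKM (SD, n = 3 each), a ratio of 20.3. The log2 fold change was 4.11 (SE 0.23, adjusted p = 2.093e-06). Rspo1 lies on the plus strand at chr4:124986401-125009102 (GENCODE M21 on GRCm38, the build called mm10).

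Rspo3, a second R-spondin of the same receptors, showed the same direction at a lower level. It had 22.3, 22.4 and 17.0 RPKM in Six2+ libraries, against 3.42, 5.23 and 5.61 RPKM in Six2- libraries. The lowest Six2+ library was still above the highest Six2- library. The ratio of means was 4.33 and the log2 fold change 1.92 (SE 0.19, adjusted p = 5.735e-05). Rspo3 lies on the minus strand of chromosome 10, and its exons overlap those of the antisense gene Gm48159. The library kit was stranded, but whether counting used the strand is unknown here, so reads of the overlap are uncertain.

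The receptors did not pass the test or were too low for it. Lgr4, the widely expressed Lgr receptor, had 17.6, 13.6 and 14.9 RPKM in Six2+ libraries, against 26.8, 22.7 and 16.6 RPKM in Six2- libraries. The groups overlapped, since the third Six2- library was below the highest Six2+ library. The log2 fold change was -0.48 (SE 0.18, 95% confidence interval -0.89 to -0.06), with an adjusted p of 0.0672. Libraries of the same replicate number deviated together in these groups, and with the replicate block the same difference of -0.48 passed, with an adjusted p of 0.0145. In each replicate number the Six2+ library had less Lgr4 than the Six2- library. Without Six2- replicate 3 it also passed (log2 fold change -0.65, adjusted p = 0.0110).

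Lgr5, the receptor best known as a marker of intestinal stem cells, was scarce in both sorted populations. It had 0.776, 0.489 and 0.720 RPKM in Six2+ libraries, against 0.522, 0.611 and 0.754 RPKM in Six2- libraries. These values overlap throughout and rest on roughly 89 to 157 reads per library. Lgr5 was below the level tested in this comparison.

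The ligases Znrf3 and Rnf43, which mark Frizzled for removal, were far apart in level. Znrf3 had 7.88, 5.68 and 8.80 RPKM in Six2+ libraries, against 3.70, 3.17 and 3.52 RPKM in Six2- libraries. All Six2+ libraries were above all Six2- libraries, with a ratio of means of 2.15 and a log2 fold change of 0.90 (SE 0.17, adjusted p = 0.002818). Rnf43 had 0.171, 0.186 and 0.0956 RPKM in Six2+ libraries, against 0.266, 0.431 and 0.59998 RPKM in Six2- libraries. The values did not overlap, with Six2+ libraries the lower, but at roughly 13 to 81 reads per library Rnf43 was below the level tested. With no filter on low values its adjusted p was 0.0444.

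The antagonists Sfrp1 and Dkk1 fell in Six2+ cells. Sfrp1 had 3.13, 3.15 and 3.11 RPKM in Six2+ libraries, against 87.5, 80.2 and 76.7 RPKM in Six2- libraries. The Six2+ mean was 0.0384 of the Six2- mean, and the log2 fold change was -4.32 (SE 0.11, adjusted p = 1.393e-07). Dkk1 had 0.361, 0.371 and 0.198 RPKM in Six2+ libraries, against 19.3, 19.1 and 18.5 RPKM in Six2- libraries. It was low in the progenitors, with roughly 15 to 37 reads in a Six2+ library and 1157 to 2026 in a Six2- library. Its log2 fold change was -3.93 (SE 0.13, adjusted p = 2.126e-07).

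The 2 genes at opposite ends of the Six2 sort that had a promoter entry in RefSeq (GRCm38.p6) were Dkk1 and Rspo1, and the 250 bases before their annotated starts are shown to let the upstream letters be compared. The Dkk1 window is chr19:30549497-30549746 on the minus strand and the Rspo1 window chr4:124986180-124986429 on the plus strand, whose last 29 bases fall inside the gene span given above. Capitals mark matches to any of 4 words, which were CTTTGAA, the variant CTTTGAT, the variant CTTTGTA and the variant CTTTGTT, forms of the sequence bound by Tcf and Lef factors, which carry the Wnt signal to DNA.
Dkk1: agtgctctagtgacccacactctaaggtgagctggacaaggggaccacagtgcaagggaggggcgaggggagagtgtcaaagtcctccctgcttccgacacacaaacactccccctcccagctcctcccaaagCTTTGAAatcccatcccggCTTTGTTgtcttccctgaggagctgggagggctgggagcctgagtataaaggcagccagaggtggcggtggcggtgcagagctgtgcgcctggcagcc
Rspo1: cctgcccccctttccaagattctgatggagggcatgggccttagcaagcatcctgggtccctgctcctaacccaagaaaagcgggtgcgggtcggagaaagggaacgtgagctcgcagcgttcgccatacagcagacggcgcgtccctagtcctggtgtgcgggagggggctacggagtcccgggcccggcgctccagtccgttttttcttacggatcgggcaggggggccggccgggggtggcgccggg

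Both Dkk1 matches were on the gene's own strand, CTTTGAA 111 bases and CTTTGTT 92 bases upstream. Of the 10 genes 6 had an entry, with 7 windows in all, and the Dkk1 window was the only one of the 7 with such a match on either strand. Of 32851 promoter windows of the same length 14.8% held at least 1 of these words. TCAGGTT, a word bound by Six2, was in none of the 7 windows and in 3.49% of the 32851. A match is a run of letters and shows no binding.

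Of the other antagonists, Sfrp2 did not pass the test and Wif1 was too low for it. Sfrp2 had 38.9, 44.4 and 37.8 RPKM in Six2+ libraries, against 44.96, 46.3 and 29.5 RPKM in Six2- libraries. The groups overlapped, and the difference of 0.03 (SE 0.18, adjusted p = 0.918) had a 95% confidence interval of -0.38 to 0.44. Its sign turned under other scalings. Sfrp2 shares exon sequence with the antisense gene Gm26771, with the same uncertainty as for Rspo3. Wif1 had 0.212, 0.347 and 0.212 RPKM in Six2+ libraries, against 0.237, 0.111 and 0.189 RPKM in Six2- libraries, which overlap, rest on roughly 11 to 31 reads per library and were below the level tested.

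Cell type markers also differed across this sort. Nephron progenitor markers summed to 989 to 1114 RPKM in Six2+ libraries and 78.2 to 118 RPKM in Six2- libraries. Of these 9 markers 7 were higher and 1 was lower, but none was lower in 6 of 12 alternative fits. Early nephron markers summed to 138 to 144 RPKM in Six2+ libraries and 50.6 to 70.7 RPKM in Six2- libraries. Of the 7 tested, 2 were higher and 1 was lower, with a median log2 fold change of -0.18. The 2 were Wnt4 and Pax8, which held most of the Six2+ sum with means of 63.0 and 53.9 RPKM. The count of lower markers ran from 0 to 2 over the alternative fits. The summed level of 11 stromal markers was 61.3 to 82.5 RPKM in Six2+ libraries and 2318 to 3430 RPKM in Six2- libraries, and all 11 fell in Six2+ cells. No stromal marker was at 0 in all libraries of either group. Endothelial markers summed to 0.428 to 2.65 RPKM in Six2+ libraries and 37.6 to 68.9 RPKM in Six2- libraries, with 6 of 6 lower. Ureteric markers summed to 26.0 to 29.4 RPKM in Six2+ libraries and 36.2 to 59.5 RPKM in Six2- libraries, with 5 of 7 tested lower and 1 higher. The higher marker, Hoxb7, held most of the Six2+ sum, with means of 18.3 RPKM in Six2+ cells and 8.72 in Six2- cells. Of the tested podocyte markers 5 of 6 were lower, of the macrophage and leukocyte markers 4 of 5, of the erythroid markers 3 of 3 and of the proximal tubule markers 3 of 3. The part of these cells in the levels of Sfrp1, Dkk1 and the other genes was not tested, and in bulk samples fewer cells of a type and less RNA per cell cannot be told apart.

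**Figure D2:**
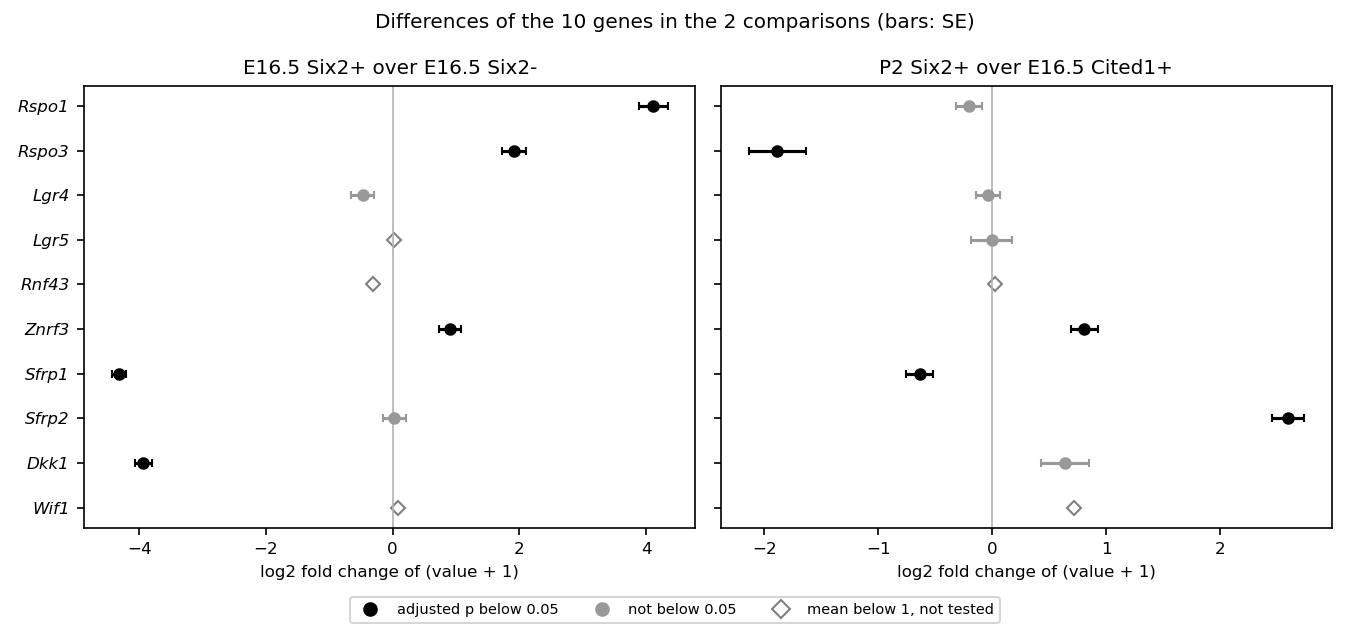
Points give the log2 fold change of each gene in the 2 comparisons, with bars for the SE; black points have an adjusted p below 0.05, grey points do not, and open diamonds were below the level tested. Rspo1 at 4.11 and Sfrp1 at -4.32 stand at the ends of the Six2 comparison, while Sfrp2 at 2.60 and Rspo3 at -1.89 stand at the ends of the other.

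The second comparison set Six2+ cells at P2, close to the end of nephron formation in the mouse, against Cited1+ cells at E16.5. Sfrp2 and Znrf3 were higher in the P2 Six2+ cells, and Rspo3 and Sfrp1 were lower, while Rspo1 and both Lgr receptors did not pass. The stage, the sorting marker and the reporter line all differ between these groups, and their contributions cannot be told apart. Of the 8 genes tested, 2 rose and 2 fell. Across all 11876 genes tested, 29.0% passed, 12.7% higher and 16.3% lower. The values of the groups did not overlap in 6 of the 8, against 58.5% of all tested genes (24.6% higher in P2 Six2+ cells and 33.9% lower). By size Sfrp2 ranked 69th and Rspo3 223rd of the 11876. The median log2 fold change was -0.07 over all tested genes and -0.02 over the 8.

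Rspo3 fell, and Rspo1 did not pass the test. Rspo3 had 2.57 and 5.74 RPKM in P2 Six2+ libraries, against 16.4, 19.2 and 16.03 RPKM in Cited1+ libraries. The P2 libraries stood apart from each other, but both were well below every Cited1+ library. The log2 fold change was -1.89 (SE 0.25, adjusted p = 0.001936). Rspo1 had 48.2 and 56.6 RPKM in P2 Six2+ libraries, against 61.6, 62.4 and 57.03 RPKM in Cited1+ libraries. These values came close without overlapping, and the log2 fold change of -0.20 (SE 0.11, adjusted p = 0.198) had a 95% confidence interval of -0.46 to 0.06.

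Neither Lgr receptor passed the test. Lgr4 had 22.3 and 20.6 RPKM in P2 Six2+ libraries, against 22.8, 20.6 and 22.7 RPKM in Cited1+ libraries. The difference was -0.04 (SE 0.10, adjusted p = 0.815), with a 95% confidence interval of -0.28 to 0.21. Lgr5 had 1.23 and 1.13 RPKM in P2 Six2+ libraries, against 0.925, 1.46 and 1.21 RPKM in Cited1+ libraries. The P2 values lay within the Cited1+ range, and the difference of -0.01 (SE 0.18, adjusted p = 0.985) had a 95% confidence interval of -0.42 to 0.41. Both differences turned sign under other scalings, and the intervals do not show that the groups are alike.

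Znrf3 rose, and Rnf43 was low in both groups. Znrf3 had 15.4 and 13.0 RPKM in P2 Six2+ libraries, against 7.84, 7.37 and 7.74 RPKM in Cited1+ libraries. Both P2 libraries were above every Cited1+ library, with a ratio of means of 1.85 and a log2 fold change of 0.81 (SE 0.12, adjusted p = 0.003082). Rnf43 had 0.735 and 0.881 RPKM in P2 Six2+ libraries, against 0.572, 0.704 and 1.08 RPKM in Cited1+ libraries. Those values overlapped and were below the level tested.

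Sfrp2 was the most abundant of the 10 genes at P2. It had 195 and 184 RPKM in P2 Six2+ libraries, against 25.5, 34.8 and 31.9 RPKM in Cited1+ libraries. The groups lie far apart, with a ratio of means of 6.16 and a log2 fold change of 2.60 (SE 0.14, adjusted p = 3.746e-05). Sfrp1 went the other way, with 7.92 and 8.29 RPKM in P2 Six2+ libraries, against 12.6, 12.6 and 14.4 RPKM in Cited1+ libraries. Its groups did not overlap, and the log2 fold change was -0.64 (SE 0.11, adjusted p = 0.006977).

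Dkk1 and Wif1 were low in both groups. Dkk1 had 2.33 and 1.40 RPKM in P2 Six2+ libraries, against 0.591, 0.959 and 0.933 RPKM in Cited1+ libraries. Both P2 libraries were above the Cited1+ libraries, but the log2 fold change of 0.64 (SE 0.21, 95% confidence interval 0.15 to 1.13) missed the threshold, with an adjusted p of 0.0575. The value was 0.40, and below the level tested, without P2 Six2+ replicate 1, and 0.87 (adjusted p = 0.0495) without P2 Six2+ replicate 2. Wif1 had 0.445 and 2.21 RPKM in P2 Six2+ libraries, against 0.196, 0.0361 and 0.818 RPKM in Cited1+ libraries. Wif1 values scattered widely within each group, from roughly 2 reads in Cited1+ replicate 2 to roughly 84 in P2 Six2+ replicate 2, and were not tested.

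Cell type markers also moved in this comparison. Markers of early nephron structures summed to 701 to 712 RPKM in P2 Six2+ libraries and 72.7 to 78.2 RPKM in Cited1+ libraries, with 5 of 7 tested higher. Nephron progenitor markers summed to 446 to 455 RPKM in P2 Six2+ libraries and 1040 to 1097 RPKM in Cited1+ libraries, with 7 of 9 lower. Stromal markers summed to 49.5 to 56.1 RPKM in P2 Six2+ libraries, where Tbx18 was at 0, and to 139 to 144 RPKM in Cited1+ libraries, with 8 of 9 tested lower and 1 higher. Ureteric markers summed to 40.9 to 41.1 RPKM in P2 Six2+ libraries and 81.0 to 109 RPKM in Cited1+ libraries, with 5 of 8 tested lower. Distal tubule and loop of Henle markers summed to 5.55 to 26.9 RPKM in P2 Six2+ libraries and 45.2 to 64.7 RPKM in Cited1+ libraries, with 2 of 5 tested lower. Podocyte markers summed to 39.6 to 49.2 RPKM in P2 Six2+ libraries and 8.07 to 15.8 RPKM in Cited1+ libraries, with 3 of 5 tested higher. Macrophage and leukocyte markers summed to 15.002 to 19.3 RPKM in P2 Six2+ libraries and 5.91 to 14.3 RPKM in Cited1+ libraries, with 3 of 4 tested higher. Of the tested proximal tubule markers 2 of 4 were lower, of the erythroid markers 2 of 2 and of the endothelial markers none of 3. The part of these cells in the differences of Sfrp2, Sfrp1, Znrf3 and Rspo3 was not tested.

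Across the 4 groups the R-spondins followed different orders. Rspo1 was highest in E16.5 Six2+ cells, then in Cited1+ cells (60.3 ± 2.90 RPKM, n = 3), then in P2 Six2+ cells (52.4 ± 5.93, n = 2), and lowest in Six2- cells, with no overlap between neighbours in that order. Rspo3 fell into a high pair of groups, E16.5 Six2+ (20.6 ± 3.11) and Cited1+ (17.2 ± 1.72), and a low pair, Six2- (4.75 ± 1.17) and P2 Six2+ (4.16 ± 2.24), with overlap inside each pair. For Rspo3 the P2 Six2+ libraries lay on either side of the Six2- libraries, while for Rspo1 both were well above the highest Six2- library.

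The order was different again for the ligases, receptors and antagonists. Znrf3 was highest in P2 Six2+ cells (14.2 ± 1.73 RPKM), overlapped between Cited1+ cells (7.65 ± 0.245) and E16.5 Six2+ cells (7.45 ± 1.61), and was lowest in Six2- cells (3.46 ± 0.270). Lgr4 overlapped between Six2- (22.0 ± 5.10), Cited1+ (22.0 ± 1.25) and P2 Six2+ cells (21.5 ± 1.22), with E16.5 Six2+ cells lowest at 15.4 ± 2.02. Lgr5 and Rnf43 averaged at most 1.20 and 0.808 RPKM in any group. Sfrp1 and Dkk1 were highest in Six2- cells and lowest in E16.5 Six2+ cells, with no overlap between any neighbours. Sfrp2 was clear of the other groups only in P2 Six2+ cells (190 ± 8.33), and its other 3 groups, from 30.8 ± 4.74 to 40.4 ± 3.52, overlapped in order.

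**Figure D3:**
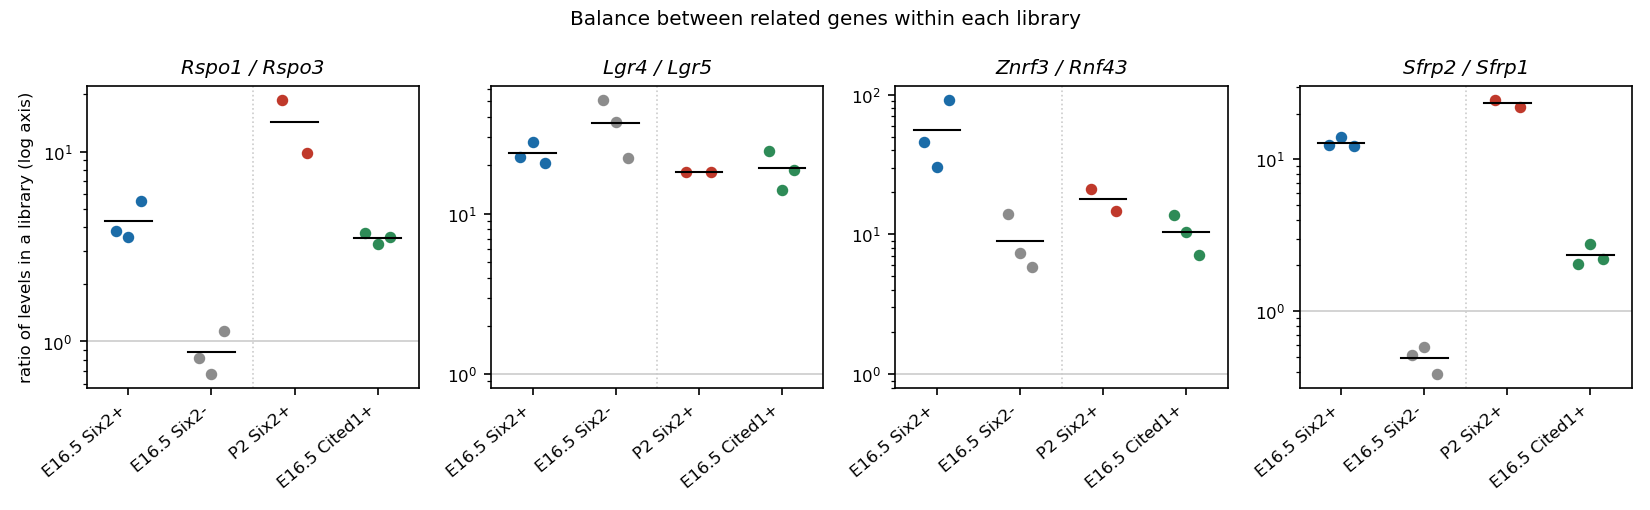
Each panel gives the ratio of the levels of 2 related genes within a library, on a log axis, with points for libraries, a line for the group mean and a grey line at a ratio of 1; the dotted line separates the deposited tables. Rspo1 exceeds Rspo3 in every library except 2 of the Six2- cells, and Sfrp2 exceeds Sfrp1 in every library except the 3 of the Six2- cells.

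Ratios within a library do not depend on its depth, though they do rest on the transcript lengths used for the deposited values. Rspo1 stood at 3.84, 3.55 and 5.50 times Rspo3 in E16.5 Six2+ libraries, against 0.816, 0.673 and 1.14 times in Six2- libraries. The ratio was 18.7 and 9.86 in P2 Six2+ libraries, against 3.74, 3.25 and 3.56 in Cited1+ libraries. The E16.5 Six2+ and Cited1+ cells were thus close, and the P2 Six2+ cells were weighted towards Rspo1. Summed, the R-spondins came to 102 to 110 RPKM in E16.5 Six2+ libraries and 6.21 to 12.0 RPKM in Six2- libraries, and to 50.8 to 62.3 RPKM in P2 Six2+ libraries and 73.1 to 81.6 RPKM in Cited1+ libraries. Differences of these ratios and sums between groups were not tested.

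Within each family a single receptor and a single ligase made up most of the transcripts. Lgr4 exceeded Lgr5 in all 11 libraries, by ratios from 14.1 to 51.3. Znrf3 exceeded Rnf43 in all 11 libraries, by ratios of 30.5 to 92.1 in E16.5 Six2+ libraries and 5.87 to 13.9 in Six2- libraries, and of 14.7 to 20.96 in P2 Six2+ libraries and 7.17 to 13.7 in Cited1+ libraries. Because Rnf43 rests on few reads, its ratios carry the larger counting error.

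**Figure D4:**
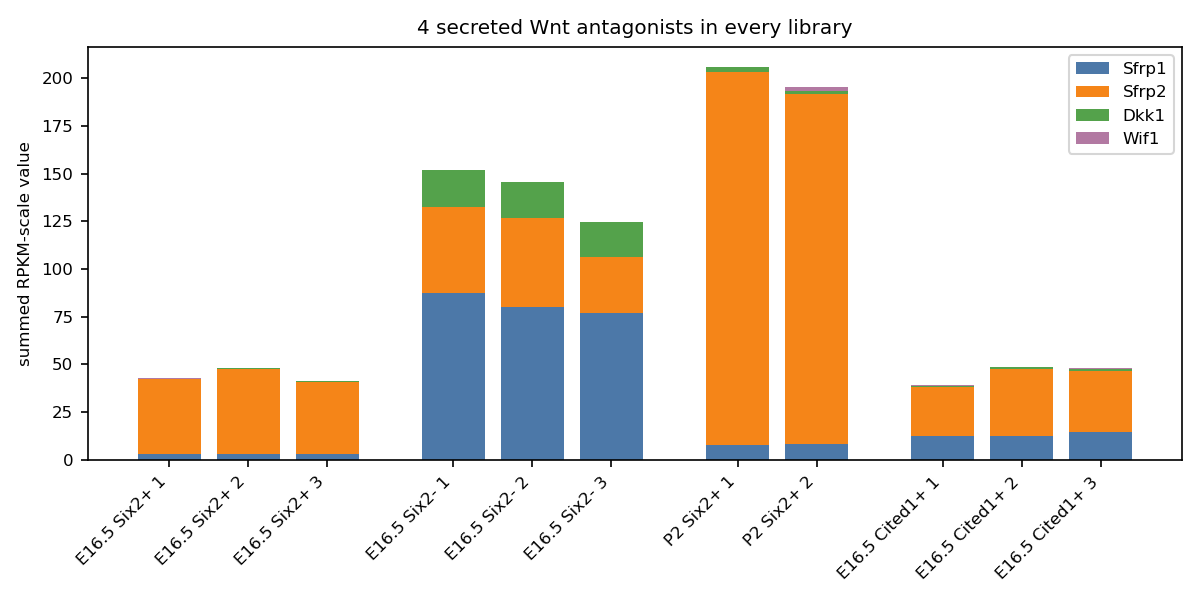
Stacked bars give the RPKM-scale values of Sfrp1, Sfrp2, Dkk1 and Wif1 in each of the 11 libraries, from a baseline of 0. The sums are 41.3 to 48.2 in E16.5 Six2+ libraries and 125 to 152 in Six2- libraries, and 196 to 206 in P2 Six2+ libraries and 38.9 to 48.4 in Cited1+ libraries.

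The 4 antagonists together showed how their makeup changed as well as their amount. Sfrp2 contributed 91.3% to 92.0% of the sum in E16.5 Six2+ libraries and 23.6% to 31.8% in Six2- libraries. It contributed 93.9% to 94.8% in P2 Six2+ libraries and 65.7% to 72.0% in Cited1+ libraries. Sfrp1 contributed 55.1% to 61.4% in Six2- libraries and 26.0% to 32.3% in Cited1+ libraries, and 7.53% at most in a Six2+ library of either stage. Sfrp2 was thus most of the 4-gene sum in Six2+ cells of both stages and in Cited1+ cells, and Dkk1 reached 12.7% to 14.8% only in the Six2- libraries. The sum covers these 4 genes alone. Igfbp4, an IGF-binding protein listed among the other antagonists and named after its values were seen, averaged 184 ± 5.599 RPKM in E16.5 Six2+ cells and 269 ± 13.6 in Six2- cells, and 278 ± 33.0 RPKM in P2 Six2+ cells and 94.9 ± 6.82 in Cited1+ cells, above Sfrp2 in each group.

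**Figure D5:**
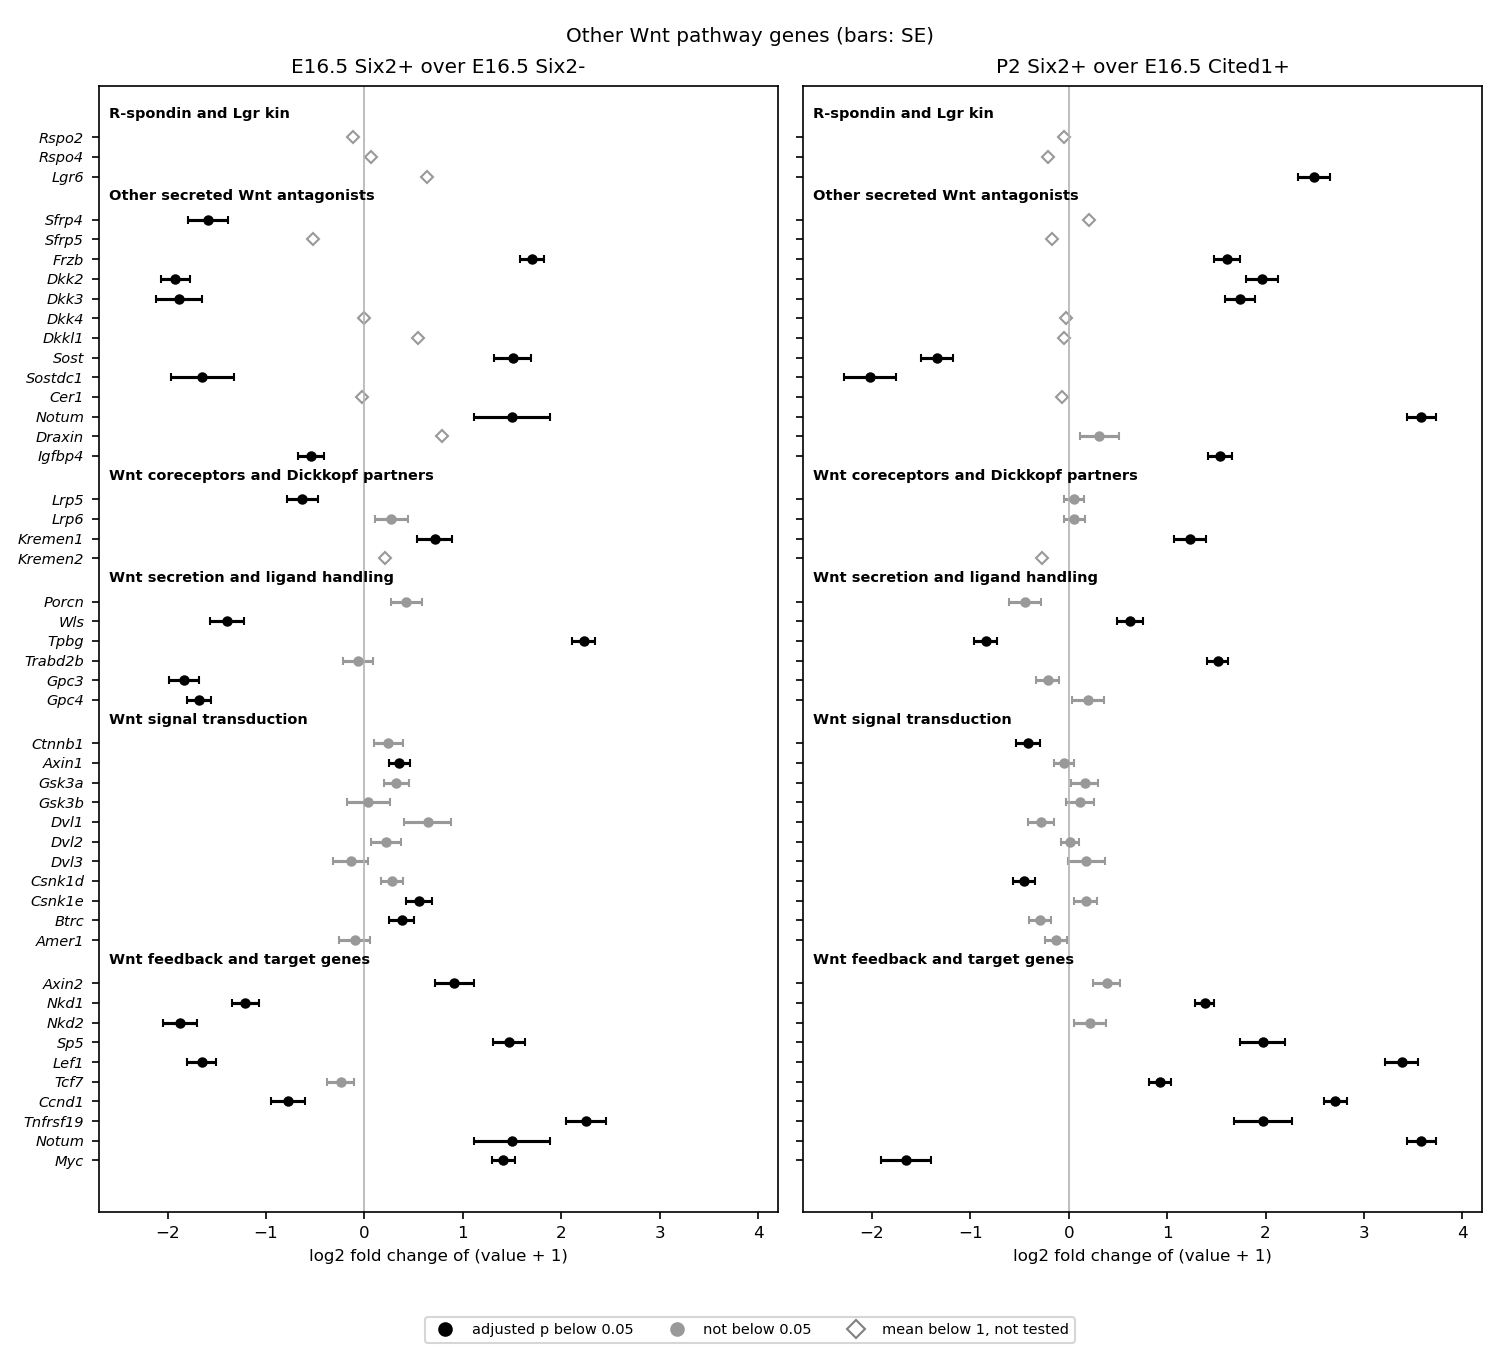
Points give the log2 fold change of other Wnt pathway genes by role in the 2 comparisons, with bars for the SE; black points have an adjusted p below 0.05, grey points do not, and open diamonds were below the level tested. Notum, listed under 2 roles, stands at 3.58 in P2 Six2+ over Cited1+ cells, and the signal transduction genes lie between -0.45 and 0.64 across the 2 comparisons.

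The remaining R-spondins and the third Lgr receptor were scarce, with an exception at P2. Rspo2 was at 0.162 RPKM at most and Rspo4 at 0.258 at most in any library, and Rspo4 was at 0 in both P2 Six2+ libraries. Lgr6 had 7.35 to 7.86 RPKM in P2 Six2+ libraries and 0.424 to 0.712 RPKM in Cited1+ libraries, a log2 fold change of 2.49 (SE 0.16, adjusted p = 7.235e-05). In the Six2 sort Lgr6 had 0.686 to 1.29 RPKM in Six2+ libraries and 0.188 to 0.416 RPKM in Six2- libraries, without overlap, but its mean was below the level tested. In every group Lgr6 was below Lgr4 in level.

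Of 13 other secreted antagonists, 8 were tested in the Six2 comparison, with 3 higher, 5 lower and a median log2 fold change of -1.07. Among all tested genes 20.5% were higher and 18.1% lower. Dkk2 and Dkk3, relatives of Dkk1, fell by 1.93 and 1.88 on the log2 scale (SE 0.15 and 0.23, adjusted p = 1.346e-05 and 0.0002545). Frzb, a further secreted Frizzled-related protein, rose with 16.2 ± 0.49 RPKM in Six2+ cells and 4.29 ± 0.42 RPKM in Six2- cells (log2 fold change 1.71, SE 0.12, adjusted p = 9.531e-06). The antagonists of the Six2 sort therefore divided, with Frzb on the progenitor side and several Dickkopf genes on the other.

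In the second comparison 8 of the 13 were tested, with 5 higher, 2 lower and a median of 1.58. Among all tested genes 12.7% were higher and 16.3% lower. Notum, an enzyme that strips the lipid from Wnts, had 16.7 ± 0.15 RPKM in P2 Six2+ cells and 0.483 ± 0.15 RPKM in Cited1+ cells (log2 fold change 3.58, SE 0.15, adjusted p = 1.5e-05). Dkk2 rose by 1.96 (SE 0.16, adjusted p = 0.0002151). Sostdc1, a secreted inhibitor of BMP and Wnt signals, fell by 2.02 (SE 0.27, adjusted p = 0.001872), with 2.15 ± 1.1 RPKM in P2 Six2+ cells and 11.6 ± 2.9 RPKM in Cited1+ cells. Dkk4 was at 0 in every E16.5 Six2+, E16.5 Six2- and P2 Six2+ library.

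Among the coreceptors that Dkk1 binds, and the Kremen proteins that act with it, 3 of 4 genes were tested in each comparison. In the Six2 sort Kremen1 rose (log2 fold change 0.72, SE 0.18, adjusted p = 0.0120) and Lrp5 fell (-0.63, SE 0.15, adjusted p = 0.0118), with a median of 0.27. When libraries were rescaled to the same total none rose in that sort. In the second comparison Kremen1 alone passed (1.23, SE 0.16, adjusted p = 0.001918), with 39.3 ± 5.5 RPKM in P2 Six2+ cells and 16.2 ± 2.7 RPKM in Cited1+ cells, and the median was 0.06. Lrp6 passed in neither, with differences of 0.27 and 0.06.

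Genes for Wnt secretion and ligand handling numbered 6, all tested. In the Six2 sort 1 rose and 3 fell, with a median of -0.73. Tpbg, a membrane protein that restrains Wnt signalling, rose by 2.23 (SE 0.12, adjusted p = 1.77e-06), and the glypicans Gpc3 and Gpc4, which bind Wnts at the cell surface, fell by 1.83 and 1.68 (SE 0.16 and 0.12, adjusted p = 2.525e-05 and 8.412e-06). In the second comparison 2 rose and 1 fell, with a median of -0.01. Trabd2b, a protease that cleaves Wnts, rose by 1.51 (SE 0.11, adjusted p = 0.0001142), Wls, the carrier of Wnts to the cell surface, rose by 0.62 (SE 0.13, adjusted p = 0.0131), and Tpbg fell by 0.85 (SE 0.12, adjusted p = 0.00251). Only 1 of the 6 rose there with either P2 library left out.

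Of 11 genes of intracellular signal transduction, all tested, 3 rose and none fell in the Six2 sort, where 38.6% of all genes passed, with a median of 0.28, and the count was 6 with the replicate block, 0 when libraries were rescaled to the same total or Six2- replicate 2 was left out, and 1 without Six2+ replicate 3 or Six2- replicate 1. The 3 were the casein kinase Csnk1e (0.56, SE 0.13, adjusted p = 0.009805), Btrc (0.38, SE 0.13, adjusted p = 0.0416) and Axin1 (0.35, SE 0.11, adjusted p = 0.0298), and Btrc and Axin1 act in the turnover of beta-catenin. In the second comparison none rose and 2 fell, where 29.0% of all genes passed, with a median of -0.05. The count of 2 held in 3 of 11 alternatives and changed in 8. None fell when P2 Six2+ replicate 1 or 2 or Cited1+ replicate 1 or 3 was left out. The 2 were Csnk1d (-0.45, SE 0.11, adjusted p = 0.0236) and Ctnnb1, which encodes beta-catenin (-0.42, SE 0.12, adjusted p = 0.0439).

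Feedback and target genes of the pathway, 10 in number and all tested, split in the Six2 sort, with 5 higher, 4 lower and a median of 0.34. Of all genes tested there, 20.5% were higher and 18.1% lower. Tnfrsf19, a receptor gene induced by Wnt, rose by 2.25 (SE 0.20, adjusted p = 3.751e-05), while Nkd2, a feedback inhibitor, and Lef1, a transcription factor of the pathway, fell by 1.88 and 1.66 (SE 0.18 and 0.15, adjusted p = 4.516e-05 and 3.98e-05). In the second comparison 7 were higher and 1 lower, with a median of 1.68, where 12.7% of all tested genes were higher and 16.3% lower. The lower gene was Myc (-1.65, SE 0.25, adjusted p = 0.003574), and Axin2 did not pass (0.38, SE 0.14, adjusted p = 0.0730). Lef1 had 19.0 ± 2.0 RPKM in P2 Six2+ cells and 0.919 ± 0.27 RPKM in Cited1+ cells (log2 fold change 3.39, SE 0.17, adjusted p = 2.531e-05). Ccnd1, the gene for cyclin D1, had 303 ± 17 RPKM in P2 Six2+ cells and 45.6 ± 4.2 RPKM in Cited1+ cells (2.71, SE 0.11, adjusted p = 1.5e-05). Early nephron markers were also higher in the P2 Six2+ cells, as given above, and their part in these levels was not tested.

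The genes whose pattern was most like that of each gene were sought among 8293, as the lower of 2 Pearson coefficients over the 6 libraries of the Six2 sort and the 5 of the second comparison. Each set of libraries falls into 2 groups, so the coefficient mostly follows the group difference and is given as a description. Rspo1 was nearest to Elac2 (0.969 and 0.958) and Sel1l3 (0.997 and 0.952), and Rspo3 to Ube2cbp (0.9898 and 0.998) and Xrcc5 (0.986 and 0.987). Znrf3 was nearest to Adgra3 (0.988 and 0.9997) and Nomo1 (0.985 and 0.991), and Lgr4 to Etaa1 (0.954 and 0.9005) and Sar1a (0.885 and 0.949). Sfrp1 was nearest to Nell2 (0.994 and 0.993) and Plau (0.996 and 0.991), Dkk1 to Sgms1 (0.998 and 0.983) and Dock11 (0.999 and 0.9748), and Sfrp2 to Dnajb9 (0.943 and 0.949) and Scoc (0.931 and 0.9302).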

How the data were processed

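Cells sorted from CFW mouse kidneys were profiled by mRNA-seq in 11 libraries of 4 groups, with a stranded library kit according to the labels' protocols. Software named in the submitters' processing notes comprises bcl2fastq 2.17, TopHat2 and Partek, with reads placed on mm10; how reads were counted, and on which strand, was not given there. The deposited values are called TPM by the authors but scale as RPKM. They summed to 321883 to 433447 per library, where TPM sums to a fixed 1000000. Sums weighted by length (GENCODE M21, 96.1% of genes matched) varied by 2.92%, against 8.95% unweighted. In low genes 59.5% to 67.5% of values lay within 0.05 of a whole number of reads, where chance gives 10%. Depth was estimated from those steps. Reads per gene also used the length of the longest annotated transcript, so they are approximate and may be too high for genes with several transcripts. Symbols turned into dates affected 27 rows of each table, with 0.125% to 0.215% of the values, and these rows were dropped.

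Groups came from the labels. Each table was fitted alone with limma 3.58.1 (R 4.3.3), which was given log2(value + 1) and a trended prior variance. Genes averaging below 1 over the libraries of the fit were left out, and Benjamini-Hochberg adjustment covered all tested genes. The fit was tested on simulated data. Same-numbered Six2+ and Six2- libraries deviated together, with correlations of 0.47, 0.45 and 0.40. This is a hint of pairing from the data that the labels do not state. The main fit did not pair them, while the replicate block, run as an alternative, did. The alternatives were another pseudocount, no filter, 2 rescalings, no trend, the replicate block and leaving out each library. The 10 genes and the lists were chosen with earlier results of these data known. From each list, the passing genes with the largest change, at most 3 per comparison, are named, with some untested genes. Igfbp4, Myc, Axin2 and Hoxb7 were named outside this rule. Gene positions are from GENCODE M21 and promoter sequences from RefSeq, both on GRCm38.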

Additional observations from a re-analysis of the deposited data

How the results depend on the processing

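The calls of Rspo1, Rspo3, Znrf3, Sfrp1 and Dkk1 in the Six2 comparison, and of Rspo3, Znrf3 and Sfrp2 in the P2 comparison, held their direction and passed under every alternative run. Of the 10 genes, 3 rose and 2 to 3 fell in the Six2 comparison, and 2 to 3 rose and 1 to 2 fell in the P2 comparison. Of all tested genes, 27.86% (without Six2- replicate 2) to 52.47% (replicate block) passed in the Six2 comparison. In the P2 comparison 11.04% (no filter on low values) to 43.22% (without Cited1+ replicate 2) passed. Whether the 10 genes held their calls better than other genes was not tested. Lgr4 in the Six2 comparison passed with the replicate block, with median-of-ratios scaling (-0.57, adjusted p = 0.0306) and without Six2- replicate 3, with adjusted p from 0.0110 to 0.226 over the alternatives. Dkk1 in the P2 comparison passed with libraries rescaled to the same total (0.68, adjusted p = 0.0465), with no trend (0.64, adjusted p = 0.0391) and without P2 Six2+ replicate 2 (0.87, adjusted p = 0.0495). It did not pass in the other alternatives that tested it, with adjusted p up to 0.193, and was 0.40 and below the level tested without P2 Six2+ replicate 1.

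The replicate numbers of the P2 and Cited1+ libraries did not pair them, with correlations of 0.04 and -0.03. P2 Six2+ cells have no replicate 3, so the replicate block there in effect set Cited1+ replicate 3 aside. The differences of tested genes were those found without that library, and the block is no test of pairing. With it, Sfrp1 had -0.58 with an adjusted p of 0.0512 and 1 of the 10 genes fell. Over all genes, 868 rose and 895 fell with it, against 1512 and 1930. No other call of the 10 genes changed with the replicate block in either comparison, except that of Lgr4.

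Uncalled differences near 0 turned sign. Sfrp2 in the Six2 comparison was -0.0532 when rescaled to the same total, -0.069 with median-of-ratios scaling, and -0.177 to 0.14 with single libraries left out. Lgr4 in the P2 comparison was 0.0459 and 0.0306 under those scalings and -0.0914 to 0.01996 with single libraries left out. Lgr5 was 0.0399 and 0.0312 under those scalings, 0.00244 with the replicate block and -0.0974 to 0.0793 with single libraries left out.

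Over all genes, rescaling to the same total gave 1546 higher and 2106 lower in the Six2 comparison, so that 42.3% of calls were higher against 53.2%, and median-of-ratios scaling gave 1799 and 2446 (42.4%). With single libraries left out, 1618 to 2382 genes rose there, the fewest without Six2- replicate 2. In the P2 comparison 788 to 2145 rose and 791 to 3012 fell with single libraries left out, and 1139 fell with no filter. The cause was not tested. The P2 group of 2 libraries limits the second comparison, and few reads limit Rnf43, Wif1 and Lgr5.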
